A study of Mus musculus with 4 samples.

Results

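Prostaglandin genes were examined in cultured colonic epithelial cells as the 9 table entries named Ptgs1, Ptgs2, Ptges, Ptges2, Ptges3, Hpgd, Ptger4, Ptgr1 and Pla2g4a, out of 17604 genes listed. All 9 had a mean above 1 FPKM (a density of sequenced fragments that corrects for library size and for the length of the transcript) and so entered the tests, which covered 12274 genes. The cells were isolated from the colon of mice without the cytokine-activated transcription factor STAT4 (Stat4-/-) or of wild-type (WT) mice. Both genotypes carry the strain label C57BL/6. Cells were plated on Matrigel, allowed 24 h to attach, and then kept with leukemia inhibitory factor (LIF, 20 ng/ml), a cytokine that signals through gp130, or without it. The 4 groups, each with 1 library, were Stat4-/- LIF, Stat4-/- control, WT LIF and WT control. The labels give neither the time in LIF of each sample nor the number of mice behind a library, and the design text speaks of duplicates without saying whether a column pools them. Differences between single libraries are therefore given without a p-value and have no check against replicates.

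Prostaglandins are lipid mediators made from arachidonic acid, which the cytosolic phospholipase A2 encoded by Pla2g4a cuts from membrane phospholipids. The cyclooxygenases, constitutive Ptgs1 and inducible Ptgs2, turn it into prostaglandin H2, and terminal synthases (Ptges, Ptges2 and Ptges3) can make prostaglandin E2 from that. Prostaglandin E2 acts on receptors such as EP4 (Ptger4), is known for its part in epithelial repair and inflammation of the colon, and is inactivated by the dehydrogenase encoded by Hpgd and by reductases such as Ptgr1.

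The targeted gene followed the genotype labels, with Stat4 at 2.98 and 2.01 FPKM in the Stat4-/- LIF and control libraries, against 20.5 and 19.7 FPKM in the WT LIF and control libraries. The Y-linked genes Ddx3y and Eif2s3y stood at 0.10 FPKM or less in both Stat4-/- libraries and at 5.86 to 7.69 FPKM in both WT libraries. The sex of the mice and any other difference between the animals therefore cannot be told apart from the Stat4 genotype. Depth, estimated from the steps between low FPKM values, was approximately 27.6, 23.1, 22.0 and 24.2 M fragments (M for mega) for Stat4-/- LIF, Stat4-/- control, WT LIF and WT control. At these depths the 9 genes rested on roughly 161 (Ptgr1) to 64825 (Ptgs2) fragments per library, which gives a counting error of 7.89 to 0.39% and does not cover variation between cultures.

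The promoter windows of 4 genes are shown because 3 of them, Hpgd, Ptgs1 and Ptges, differed between the genotypes by the test below and the fourth, Ptgs2, was the most highly expressed of the 9. Each runs from 250 bases before to 50 bases after the RefSeq transcription start (GRCm38.p6, which is mm10), 5′ to 3′ on the gene's strand. Hpgd lies at chr8:56294302-56294601 on the plus strand, Ptgs1 at chr2:36230176-36230475 on the plus strand, Ptges at chr2:30903248-30903547 on the minus strand and Ptgs2 at chr1:150099781-150100080 on the plus strand. The Ptges start used by RefSeq lies inside the gene's span in GENCODE, and that of Hpgd lies before the GENCODE start of the gene. Capitals mark matches to a searched motif.
Hpgd: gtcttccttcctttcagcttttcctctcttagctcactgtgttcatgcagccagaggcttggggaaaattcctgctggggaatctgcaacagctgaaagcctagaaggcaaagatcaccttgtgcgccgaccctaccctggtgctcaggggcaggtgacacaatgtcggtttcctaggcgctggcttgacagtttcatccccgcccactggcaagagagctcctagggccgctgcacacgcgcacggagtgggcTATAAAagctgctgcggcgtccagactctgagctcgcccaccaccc
Ptgs1: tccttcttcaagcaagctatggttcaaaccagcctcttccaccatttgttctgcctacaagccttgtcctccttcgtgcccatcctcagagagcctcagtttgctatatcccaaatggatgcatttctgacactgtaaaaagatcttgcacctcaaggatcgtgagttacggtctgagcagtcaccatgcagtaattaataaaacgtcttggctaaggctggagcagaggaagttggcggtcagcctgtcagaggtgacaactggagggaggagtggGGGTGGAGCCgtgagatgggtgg
Ptges: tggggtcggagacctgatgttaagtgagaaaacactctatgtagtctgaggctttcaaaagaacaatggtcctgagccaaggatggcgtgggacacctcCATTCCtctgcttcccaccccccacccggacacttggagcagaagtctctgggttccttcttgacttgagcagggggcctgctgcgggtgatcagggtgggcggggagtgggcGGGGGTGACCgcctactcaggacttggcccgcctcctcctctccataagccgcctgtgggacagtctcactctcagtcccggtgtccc
Ptgs2: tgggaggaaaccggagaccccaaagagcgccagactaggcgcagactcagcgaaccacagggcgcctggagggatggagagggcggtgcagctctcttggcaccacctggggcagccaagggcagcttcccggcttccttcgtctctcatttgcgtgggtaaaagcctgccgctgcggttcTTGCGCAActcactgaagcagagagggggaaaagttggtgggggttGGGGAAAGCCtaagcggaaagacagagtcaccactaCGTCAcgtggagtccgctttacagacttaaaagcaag

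Motifs were searched on both strands, and the share of all 32851 promoter windows with a match is given for each. They were TTCNNNGAA for STAT factors (8.3%), TGANTCA for AP-1 (7.8%), TTGCNNAA for C/EBP (10.8%), GGAATG for TEAD (14.7%), TGACG for the half-site of the cAMP response element (20.8%), TATAAA for the TATA box (13.6%) and, as a loose form of the NF-kB site, GGG and CC with any 5 bases between them (50.8%). The STAT letters were found in 0 of the 9 genes' windows and the AP-1 letters also in 0. Counting the start as +1, Ptgs2 held the C/EBP letters at -69, the NF-kB letters at -23 and the half-site at 14. Hpgd held only the TATA letters, at 5 from the RefSeq start, and these letters lie before the GENCODE start of the gene (56294585). In Ptges the TEAD letters began at -151 and the NF-kB letters at -38, and in Ptgs1 the NF-kB letters began at 28. None of the matches shown overlaps another. A match describes the letters in the window only.

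The genes differed widely in level (plot of FPKM by gene and library). Ptgs2, the inducible cyclooxygenase, was far above the rest at 527 FPKM in Stat4-/- LIF, 492 FPKM in Stat4-/- control, 488 FPKM in WT LIF and 484 FPKM in WT control, which placed it 118th, 121st, 119th and 115th of 17604 genes. Ptges3 followed with a mean of 103 FPKM over the 4 libraries, then Ptges with 81.6, Pla2g4a with 39.2, Ptgs1 with 18.2, Ptges2 with 12.6, Hpgd with 11.01, Ptger4 with 9.95 and Ptgr1 with 3.27 FPKM. Neighbours in this order did not overlap between libraries, except around Hpgd, whose values overlapped those of Ptgs1, Ptges2 and Ptger4. In both WT libraries Hpgd stood between Ptgs1 and Ptges2, whereas in both Stat4-/- libraries it stood between Ptger4 and Ptgr1.

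**Figure D1:**
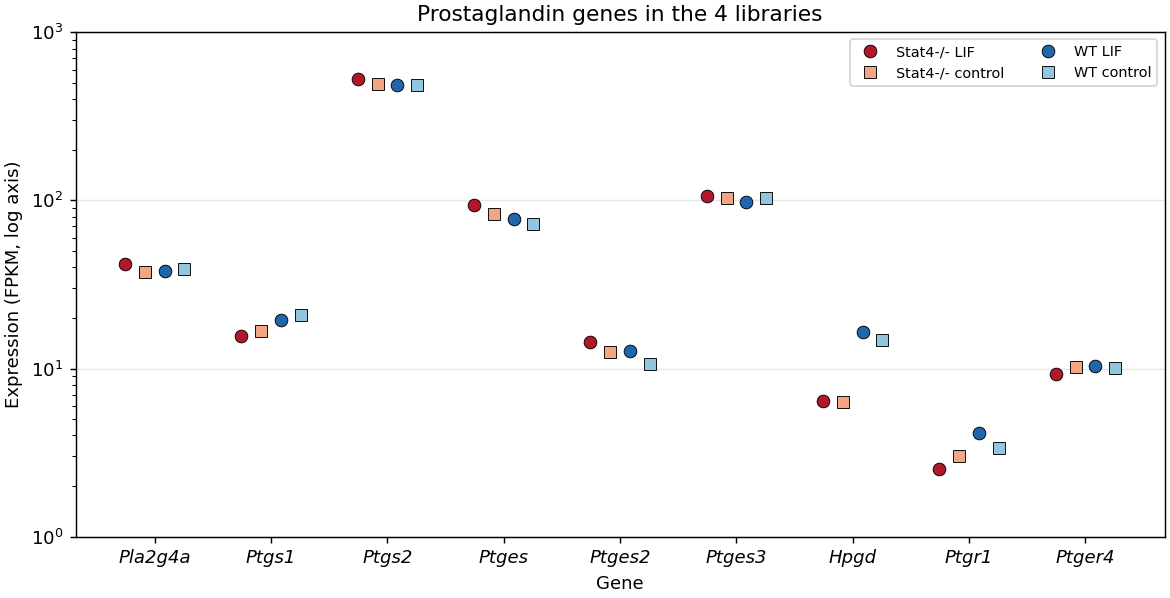
Expression in FPKM on a log axis for the 9 genes, ordered by role from arachidonate release to receptor, with 1 point per library (Stat4-/- LIF, Stat4-/- control, WT LIF, WT control). Ptgs2 lies between 484 and 527 FPKM in all 4 libraries, and Hpgd is the gene whose Stat4-/- and WT points lie farthest apart, at 6.30 to 6.44 and 14.8 to 16.5 FPKM.

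Across genotypes, the gene of the 9 with the largest difference was Hpgd. This gene, for the dehydrogenase that starts the inactivation of prostaglandins, fell to 6.44 FPKM in Stat4-/- LIF and 6.30 FPKM in Stat4-/- control, against 16.5 FPKM in WT LIF and 14.8 FPKM in WT control. Both Stat4-/- libraries were below both WT libraries, by 2.56-fold with LIF and 2.35-fold without. Ptgs1 also fell and Ptges rose, each by less than 1.5-fold, while Ptgs2 did not pass the test.

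Genotype was tested with limma on log2(FPKM + 1), with treatment as a further term, so that 2 Stat4-/- libraries were set against 2 WT libraries. At an adjusted p under 0.05, 3 of the 9 genes passed (1 higher, 2 lower), against 15.5% of all tested genes (7.81% higher, 7.68% lower). The median coefficient of the 9 was 0.05, and that of all tested genes was -0.01. In 5 of the 9 the Stat4-/- and WT libraries did not overlap (2 higher, 3 lower in Stat4-/-), and the same was true of 53.3% of all tested genes (24.4% higher, 28.9% lower). A gap between the groups alone is therefore common in this table.

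For Hpgd (ENSMUSG00000031613, chromosome 8, 56294585 to 56321043, plus strand), limma gave a coefficient of -1.17 (SE 0.085, 95% interval -1.36 to -0.99, Benjamini-Hochberg adjusted p = 5.15e-06). Only 0.293% of tested genes had a coefficient of larger size. On log2(FPKM + 1) it was also the only one of the 9 genes past a 1.5-fold difference between single libraries; with a pseudocount of 0.1, Ptgr1 passed as well with LIF, where its plain FPKM was 1.62-fold lower in Stat4-/-. That held with LIF (-1.23 on the log2 scale), where 3.8% of tested genes passed that size (1.61% higher, 2.2% lower in Stat4-/-). It also held without LIF (-1.12), where 3.21% did (1.62% higher, 1.59% lower). The 4 values rest on approximately 299, 245, 611 and 604 fragments, and their counting errors of 4.05 to 6.39% are small beside the difference. Hpgd kept its call in 8 of 8 alternative fits, with adjusted p from 5.52e-06 to 0.0317. All of its 31-base words were unique to it among annotated transcripts.

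Ptgr1 (ENSMUSG00000028378, chromosome 4, 58965439 to 58987119, minus strand), which encodes a reductase that acts after Hpgd, was also lower in both Stat4-/- libraries than in both WT libraries, but by less. It was measured at 2.54 FPKM in Stat4-/- LIF and 3.03 FPKM in Stat4-/- control, against 4.11 FPKM in WT LIF and 3.39 FPKM in WT control. The groups did not overlap, but the gap without LIF (-0.12 on the log2 scale) was much narrower than with LIF (-0.53), and the limma coefficient of -0.33 did not pass (SE 0.135, 95% interval -0.62 to -0.03, adjusted p = 0.132).

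Of the cyclooxygenases, Ptgs1 (ENSMUSG00000047250, chromosome 2, 36230426 to 36252272, plus strand) fell to 15.6 FPKM in Stat4-/- LIF and 16.8 FPKM in Stat4-/- control, against 19.6 FPKM in WT LIF and 20.9 FPKM in WT control. Its differences were nearly alike with and without LIF (-0.31 and -0.30 on the log2 scale). Limma gave -0.30 (SE 0.068, adjusted p = 0.0112), a call that 5 of 8 alternative fits kept, with adjusted p from 0.00884 to 0.0987 over all 8. An unlisted transcript on the opposite strand overlaps an exon of Ptgs1, and the labels do not say whether the counting used strand.

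Ptgs2 (ENSMUSG00000032487, chromosome 1, 150100031 to 150108227, plus strand) differed by 0.07 between the genotypes (SE 0.035, 95% interval -0.01 to 0.15, adjusted p = 0.222). The Stat4-/- libraries, at 527 and 492 FPKM, were above the WT libraries, at 488 and 484 FPKM, but under quantile normalization the coefficient was -0.032. The FPKM ratio of Ptgs2 to Ptgs1 was 33.9 and 29.3 in Stat4-/- LIF and control, against 24.9 and 23.2 in WT LIF and control. The ratio of Ptgs2 to Hpgd was 81.9 and 78.1 in the Stat4-/- libraries, against 29.6 and 32.7 in the WT libraries, and this difference came mainly from Hpgd.

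Among the prostaglandin E synthases, Ptges (ENSMUSG00000050737, chromosome 2, 30889471 to 30929863, minus strand), the inducible microsomal enzyme that acts with Ptgs2, rose to 93.9 FPKM in Stat4-/- LIF and 83.1 FPKM in Stat4-/- control, against 77.4 FPKM in WT LIF and 72.0 FPKM in WT control. Both Stat4-/- libraries exceeded both WT libraries. Limma gave 0.24 (SE 0.046, adjusted p = 0.00503), which 6 of 8 alternative fits kept, with adjusted p from 0.00532 to 0.144 over all 8. Ptges2, the membrane-associated synthase, was at 14.3 and 12.6 FPKM in Stat4-/- LIF and control, against 12.7 and 10.7 FPKM in WT LIF and control. Its genotype groups overlapped, and its coefficient of 0.19 did not pass (95% interval 0.02 to 0.36, adjusted p = 0.131). Ptges3, the cytosolic synthase also known as the co-chaperone p23, was at 107 and 104 FPKM in Stat4-/- LIF and control, against 97.5 and 104 FPKM in WT LIF and control. The coefficient of 0.06 did not pass either (95% interval -0.04 to 0.17, adjusted p = 0.420), and 20.9% of the 31-base words of Ptges3 are shared with other annotated genes, among them the pseudogene Ptges3-ps, which the table does not list.

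Pla2g4a, which supplies arachidonic acid, was at 42.1 and 37.7 FPKM in Stat4-/- LIF and control, against 38.0 and 38.9 FPKM in WT LIF and control. Its groups overlapped and its coefficient was 0.05 (95% interval -0.08 to 0.18, adjusted p = 0.625). Pla2g4a and Ptgs2 are neighbours on chromosome 1, 138740 bases apart, and Ptgs2 starts 98.0 megabases beyond Stat4 on the same chromosome. Ptger4, the EP4 receptor gene, was at 9.32 and 10.2 FPKM in Stat4-/- LIF and control, against 10.3 and 10.02 FPKM in WT LIF and control (coefficient -0.06, 95% interval -0.25 to 0.13, adjusted p = 0.708). The exons of Ptger4 overlap those of Ttc33 on the opposite strand. Ttc33 was at 9.13 and 8.76 FPKM in Stat4-/- LIF and control, against 10.5 and 10.1 FPKM in WT LIF and control, so reads of either gene could enter the other's value if the counting ignored strand.

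**Figure D2:**
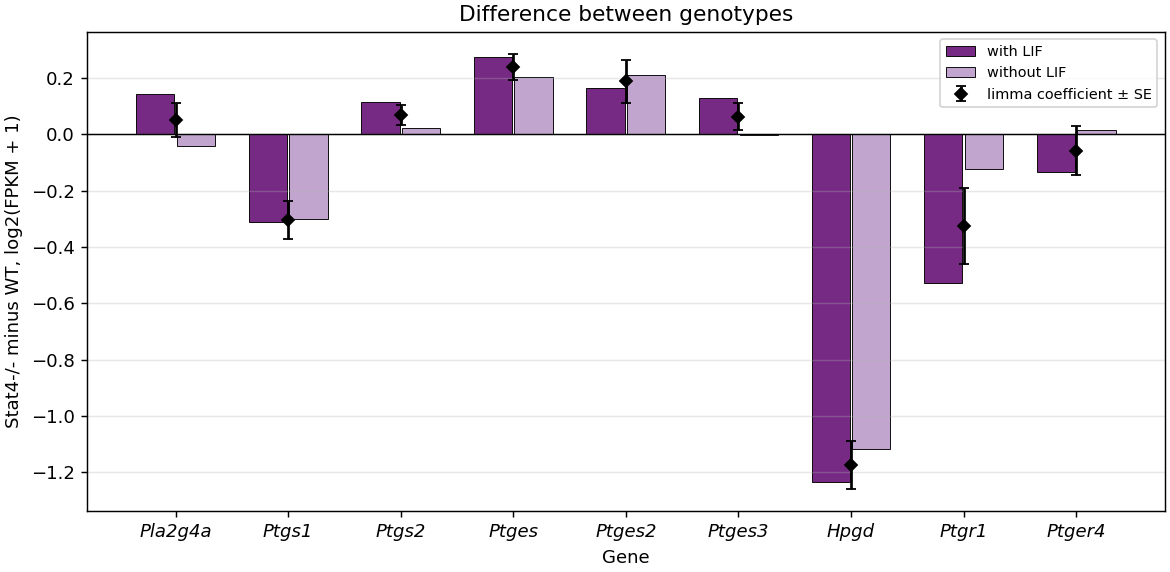
Stat4-/- minus WT on log2(FPKM + 1) for each gene, as bars for the pair of libraries with LIF and the pair without LIF, with the limma coefficient and its SE as diamonds. Hpgd stands out at -1.23 with LIF and -1.12 without, Ptgs1 is lower and Ptges higher in both pairs, and Pla2g4a, Ptges3 and Ptger4 change sign between the pairs.

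Marker levels of several cell types also differed between the genotypes. Fewer cells of a type and less RNA per cell cannot be told apart in these bulk libraries. All 10 genes of a list of epithelial markers were expressed, with at least 14.15 FPKM of each in every library. By limma 5 of the 10 were lower in Stat4-/- (Krt19, Krt20, Vil1, Cdx2 and Lgals4) and 0 higher. Of all tested genes, 7.68% were called lower and 7.81% higher. Lgals4, a galectin of the gut epithelium, was at 549 and 573 FPKM in Stat4-/- LIF and control, against 751 and 775 FPKM in WT LIF and control, a coefficient of -0.44 beside the -1.17 of Hpgd. Epithelial genes that did not pass included Epcam (-0.10) and Krt8 (-0.05), and Krt18, Cdh1 and Cldn7 had coefficients above 0 (0.08, 0.06 and 0.03). The summed epithelial list was 8232 and 8774 FPKM in the Stat4-/- libraries, against 9140 and 9355 FPKM in the WT libraries. Whether this plays a part in the Hpgd difference was not tested.

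Transcripts of other cell types, some of them known to express cyclooxygenases, were also present. The limma counts for their markers stand beside 7.81% of all tested genes called higher and 7.68% called lower in Stat4-/-. Fibroblast markers summed to 833 and 851 FPKM in Stat4-/- LIF and control, against 901 and 904 FPKM in WT LIF and control (1 of 10 higher, 3 lower by limma). Mast cell markers summed to 46.5 and 42.9 FPKM in the Stat4-/- libraries, against 60.2 and 53.6 FPKM in the WT libraries (3 of 4 tested lower), with Tpsb2 at 0.08 FPKM or less. Smooth muscle markers summed to 280 and 315 FPKM in the Stat4-/- libraries, against 227 and 236 FPKM in the WT libraries (5 of 8 higher, 1 lower). Of the called genes, 3 mast cell, 3 fibroblast and 1 smooth muscle gene lay on the same side as Ptgs1. On the other side lay 1 fibroblast, 5 smooth muscle and 4 endothelial genes. In the fibroblast list, 1 of 10 genes was higher and 9 were lower in Stat4-/- with LIF. Without LIF, 5 were higher and 5 lower. The median genotype difference of all tested genes was -0.015 with LIF and -0.0062 without, on log2(FPKM + 1). The part of these cell types in the Ptgs1 difference was not tested. The sums for endothelium were 384 and 358 FPKM in the Stat4-/- libraries, against 318 and 323 FPKM in the WT libraries (4 of 8 higher). Of the tuft cell markers 0 of 3 tested passed, and the defining genes Trpm5 and Pou2f3 were near 0, at no more than 0.03 and 0.21 FPKM. Among immune and neural lists, limma called 1 higher and 2 lower of 10 macrophage genes and 1 lower of 3 neutrophil genes. The called neutrophil gene, Ly6g, was at 145 to 210 FPKM, while every other listed neutrophil gene was at 3.96 FPKM or less. Limma called 0 of 3 T and NK cell genes, and 4 higher and 1 lower of 7 B and plasma cell genes. Of 7 enteric glia and neuron genes, 3 were called lower.

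None of the 9 prostaglandin genes passed the limma test for LIF. Their FPKM with LIF lay from 16.2% below control (Ptgr1 in Stat4-/- cells) to 21.2% above control (Ptgr1 in WT cells). The LIF effect common to both genotypes was tested by limma with genotype as a further term. This test called 0 of the 9 genes, against 0.823% of all tested genes (0.701% higher, 0.122% lower). Its unadjusted p was under 0.05 for 2 of the 9, Ptges and Ptges2, beside 1537 of all 12274 tested genes. Between single libraries, 0 of the 9 reached a 1.5-fold difference with LIF in Stat4-/- cells, where 0.994% of tested genes did (0.44% higher, 0.554% lower). In WT cells the count was also 0, where 0.872% of tested genes did (0.587% higher, 0.285% lower). The median of the 9 coefficients was 0.06, against -0.0015 for all tested genes.

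Ptges2 was the only gene of the 9 with both LIF libraries above both control libraries, which 12.8% of all tested genes showed, and 0 of the 9 had both below, which 14.2% showed (27% in either direction). The LIF values of 14.3 FPKM in Stat4-/- and 12.7 FPKM in WT compare with control values of 12.6 FPKM in Stat4-/- and 10.7 FPKM in WT. Its coefficient was 0.20 (SE 0.077, 95% interval 0.03 to 0.37, adjusted p = 0.293). For Ptges the coefficient was 0.14 (SE 0.046, 95% interval 0.04 to 0.24, adjusted p = 0.215), with 93.9 FPKM in LIF against 83.1 FPKM in control in Stat4-/- cells and 77.4 FPKM in LIF against 72.0 FPKM in control in WT cells. LIF was thus 12.9% above control for this synthase in Stat4-/- cells and 7.51% above control in WT cells.

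Ptgs2 was 7.20% higher with LIF in Stat4-/- cells and 0.719% higher in WT cells, with a coefficient of 0.06 (95% interval -0.02 to 0.13, adjusted p = 0.583) that became -0.0079 under quantile normalization. The upper end of the interval, 0.13 on the log2 scale, holds only within the assumptions of the fit. It does not cover variation between cultures or animals, so it does not bound the LIF effect on this gene. Ptgs1 was lower with LIF by 0.10 in Stat4-/- and by 0.09 in WT on the same scale (coefficient -0.10, 95% interval -0.24 to 0.05, adjusted p = 0.640). Hpgd was 2.22% higher with LIF in Stat4-/- cells and 11.3% higher in WT cells (coefficient 0.09, 95% interval -0.10 to 0.27, adjusted p = 0.758), and with LIF the Stat4-/- level remained below both WT levels. Coefficients for Ptges3, Ptger4, Ptgr1 and Pla2g4a were -0.03, -0.04, 0.02 and 0.06, with adjusted p of at least 0.763.

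**Figure D3:**
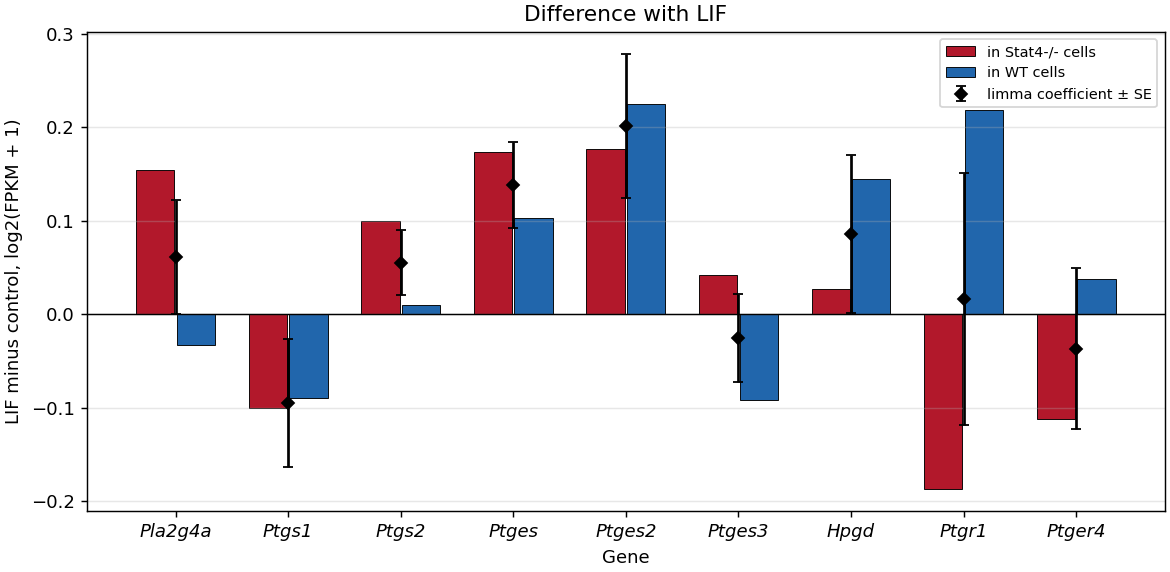
LIF minus control on log2(FPKM + 1) for each gene, as bars for Stat4-/- cells and for WT cells, with the limma coefficient and its SE as diamonds. All bars lie between -0.19 and 0.23, and the bars of Pla2g4a, Ptges3, Ptgr1 and Ptger4 point in opposite directions in the 2 genotypes.

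Whether the LIF effect on these genes depends on Stat4 could not be tested, because the difference of the LIF effects leaves no residual degrees of freedom. As a value, it was largest for Ptgr1, at -0.41 on the log2 scale. LIF was 16.2% below control in Stat4-/- cells and 21.2% above control in WT cells for that gene, at approximately 161 to 208 fragments per library. For the other genes the difference of the LIF effects lay between -0.15 (Ptger4) and 0.19 (Pla2g4a).

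Genes whose 4 centred log2(FPKM + 1) values were closest to those of a member were sought for members that varied by at least 0.5, which held for Hpgd and Ptgr1. Among 8662 genes averaging 5 FPKM or more, without predicted genes, small RNAs and the other members, the closest to Hpgd by Euclidean distance over the 4 libraries were Sval1 (0.07), Sult1b1 (0.08), a sulfotransferase gene, and Cck (0.13), the gene of the hormone cholecystokinin. Sult1b1 was at 4.33 and 3.90 FPKM in Stat4-/- LIF and control, against 10.8 and 9.73 FPKM in WT LIF and control. The closest to Ptgr1 were Scamp1 (0.03), Aktip (0.05) and Yipf1 (0.06). With 4 libraries many genes lie close by, and the distances are a description.

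The wider pathway was read from 64 further symbols, synonyms included, of which 59 were listed and 37 were tested. Limma called 10 of the 37 between genotypes (5 higher, 5 lower in Stat4-/-), beside the 15.5% of all tested genes. For LIF it called 0 of the 37, beside 0.823% of all tested genes. An unadjusted p under 0.05 for LIF was reached by 6 of the 37, beside 1537 of all 12274 tested genes. Median coefficients of the 37 were -0.00055 for genotype and 0.05 for LIF.

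Genes of the phospholipase families and of other enzymes listed for arachidonate release, without Pla2g4a, gave 3 lower and 1 higher of 13 tested. Pla2g4f, a relative of Pla2g4a, fell to 1.06 and 1.23 FPKM in Stat4-/- LIF and control, against 3.54 and 2.84 FPKM in WT LIF and control (coefficient -0.96, SE 0.148, adjusted p = 0.00119). Pla2g10, a secreted phospholipase A2 of the colon, fell to 6.52 and 6.50 FPKM in the Stat4-/- libraries, against 9.16 and 10.6 FPKM in the WT libraries (adjusted p = 0.00293). Pla2g12b, listed by family and near the filter of 1 FPKM, also fell. It was at 0.84 and 1.04 FPKM in Stat4-/- LIF and control, against 1.97 and 2.10 FPKM in WT LIF and control. Its limma call (adjusted p = 0.0140) was kept by 6 of the 7 alternative fits that held the gene. Pla2g16, an adipose phospholipase, rose to 5.01 and 3.99 FPKM in Stat4-/-, against 3.48 and 2.92 FPKM in WT (adjusted p = 0.0436). This last call was kept by 3 of the 7 alternative fits that held the gene. The remaining 9, Pla2g2a, Pla2g4b, Pla2g6, Pla2g7, Pla2g12a, Pla2g15, Mgll, Daglb and Faah, did not pass.

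The other terminal enzymes of prostaglandin synthesis gave 3 higher and 1 lower of 9 tested. Akr1b7 and Akr1b3, aldo-keto reductases that can make prostaglandin F2α in the mouse, both rose. Akr1b7 was at 37.5 and 33.1 FPKM in Stat4-/- LIF and control, against 21.8 and 19.2 FPKM in WT LIF and control (coefficient 0.75, SE 0.060, adjusted p = 1.13e-05). Akr1b3 was at 77.6 and 77.8 FPKM in the Stat4-/- libraries, against 64.9 and 59.6 FPKM in the WT libraries (adjusted p = 0.00144). The carbonyl reductases, which can act on prostaglandin E2, went opposite ways. Cbr1 fell to 24.5 and 18.7 FPKM in Stat4-/-, against 33.0 and 31.02 FPKM in WT (coefficient -0.56, adjusted p = 0.000441), and Cbr3 rose to 14.0 and 13.6 FPKM, against 12.8 and 8.07 FPKM in WT (adjusted p = 0.0370, kept by 2 of 8 alternative fits). Akr1b8, the most abundant of the group, was at 385 and 376 FPKM in Stat4-/-, against 396 and 366 FPKM in WT, and did not pass (adjusted p = 0.995). Hpgds and Ptgis, the synthases of prostaglandin D2 and prostacyclin, as well as Tbxas1 (thromboxane synthase) and Fam213b did not pass.

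Transport and receptor genes showed 1 call. Slco3a1, an organic anion transporter, rose to 15.6 and 15.5 FPKM in Stat4-/- LIF and control, against 13.1 and 11.6 FPKM in WT LIF and control (coefficient 0.31, adjusted p = 0.0205, kept by 5 of 8 alternative fits). Slco2a1, the prostaglandin uptake carrier, was at 16.3 and 13.2 FPKM in Stat4-/-, against 14.3 and 14.0 FPKM in WT, and the exporter gene Abcc4 was at 17.6 and 19.9 FPKM in Stat4-/-, against 17.9 and 19.9 FPKM in WT. Neither passed. Of the receptors, Ptger1 (EP1), Ptger2 (EP2) and Ptgir (the prostacyclin receptor) were tested and none passed for genotype, with adjusted p of at least 0.192 by limma and 0 of 3 at an unadjusted p under 0.05. Ptger3 lay at 0.29 to 0.81 FPKM and was not tested.

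In further breakdown, 1 of 4 tested genes was lower in Stat4-/- cells. Cyp4f14, a cytochrome P450 gene, fell to 2.90 and 2.56 FPKM in Stat4-/-, against 3.90 and 3.94 FPKM in WT (adjusted p = 0.0465), a call that 0 of the 7 alternative fits holding the gene kept. Cyp4f13 did not pass, nor did Ptgr2 and Zadh2, reductases of the same step as Ptgr1, with Zadh2 at 21.6 and 21.6 FPKM in Stat4-/-, against 21.9 and 20.3 FPKM in WT. The list for the lipoxygenase arm, which makes leukotrienes and related lipids from arachidonic acid, also holds Ephx2, a soluble epoxide hydrolase gene. Of the 5 tested genes of that list, 0 passed for genotype. The unadjusted limma p was under 0.05 for 2 of the 5, Lta4h and Ephx2, beside 3610 of all 12274 tested genes. Ephx2 was at 0.91 FPKM in Stat4-/- LIF and at 2.51 to 2.70 FPKM in the other libraries. Alox5, the enzyme that starts leukotriene synthesis, was at 0.60 FPKM or less in every library.

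**Figure D4:**
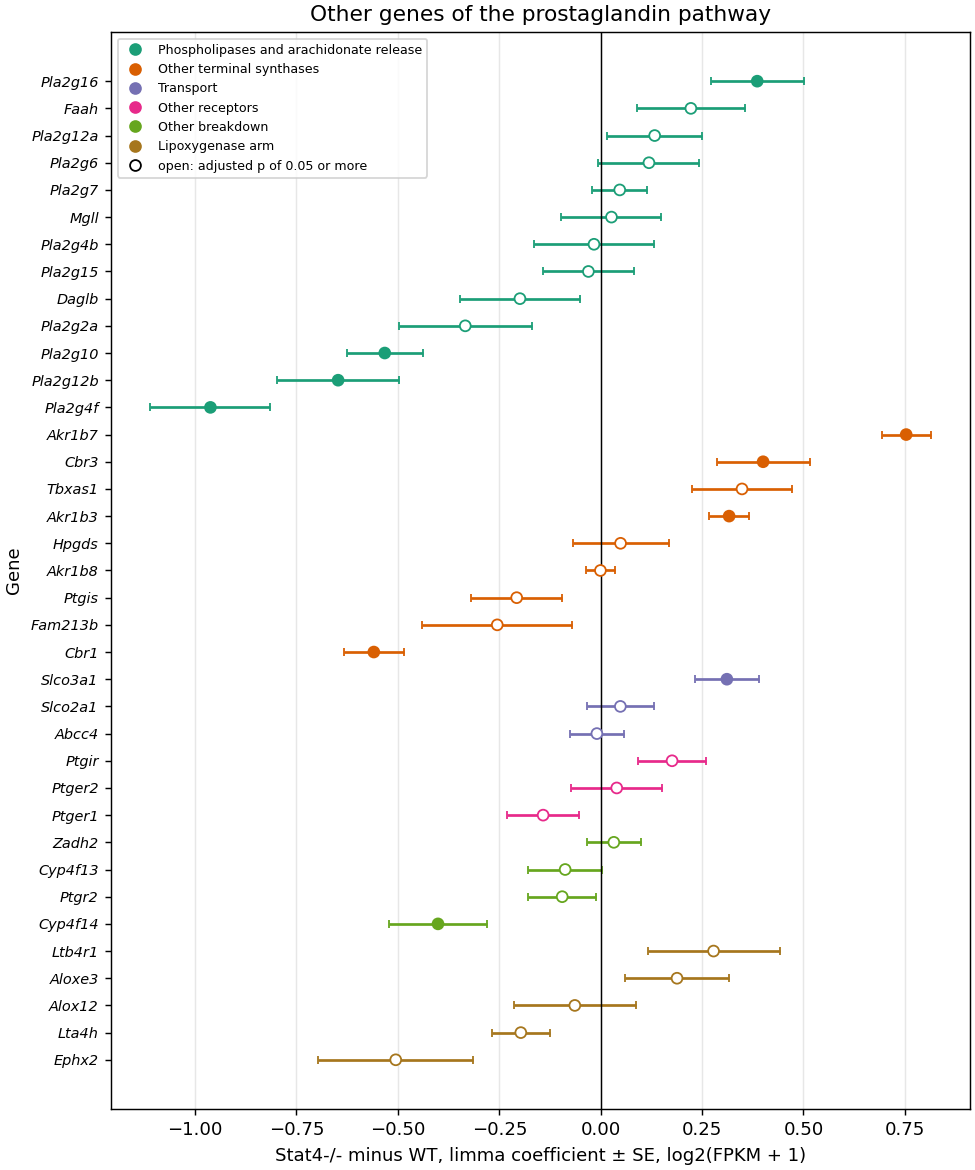
Limma coefficient for Stat4-/- minus WT with its SE on log2(FPKM + 1) for the 37 tested pathway genes, coloured by role; filled points passed an adjusted p of 0.05. The 10 filled points lie on both sides of 0, from Pla2g4f at -0.96 to Akr1b7 at 0.75.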

How the data were processed

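RNA was sequenced from 4 libraries, 1 per group. The submitters' processing notes name HISAT, Bowtie2 and the build mm10. Which versions, annotation and quantification program were used is not given in the sources used here. Per the file headers, the authors deposited FPKM values with 2 decimals, and 0 value columns were left unused. The labels name a TruSeq RNA kit.

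Values were analysed as log2(FPKM + 1) for genes averaging 1 FPKM or more. A limma fit (3.58.1, R 4.3.3) with additive LIF and genotype terms and limma's trend option gave two-sided tests with Benjamini-Hochberg adjustment over all 12274 genes. Its residual degrees of freedom are 1 and its prior 10.2, and an interaction counts as error. With 1 library per group, the error of each gene comes only from the difference of its LIF effects. That error is then drawn toward a trend over all tested genes. Replicates from separate animals are not documented, so its p-values do not measure the spread between cultures or animals.

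Depth is approximate: it was the value at which FPKM up to 0.3 in short genes with 1 transcript (161 to 183 genes) came closest to whole fragments, and 60.7 to 68.2% then lay within 0.15 fragments of one. Fragments per gene used the longest GENCODE M21 transcript. Promoters are RefSeq windows, and all 9 genes matched by symbol. Members and gene lists were chosen with earlier results of these data known. A gene of the lists is not reported here. Named genes were the 9 members, the listed pathway genes averaging 1 FPKM or more, and the 3 genes closest to each member that varied by at least 0.5; marker genes named as examples were chosen after their values were seen. Alternatives were a pseudocount of 0.1, no filter, a minimum mean of 5 FPKM, 3 other scalings, no variance trend and a fit without the other factor.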

Additional observations from a re-analysis of the deposited data

Results flagged for a closer look

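For 4 of the 9 genes the single LIF difference had opposite directions in Stat4-/- and WT cells. The difference of the LIF effects, Stat4-/- minus WT on log2(FPKM + 1), was -0.41 for Ptgr1, 0.19 for Pla2g4a, -0.15 for Ptger4 and 0.13 for Ptges3. With 1 library per group these differences were not tested. The largest, in Ptgr1, compares 2.54 FPKM with LIF and 3.03 FPKM in control in Stat4-/- cells with 4.11 FPKM with LIF and 3.39 FPKM in control in WT cells.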

How the results depend on the processing

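With 12274 genes, limma called 101 for LIF (86 higher, 15 lower) and 1902 for genotype (959 higher, 943 lower). The LIF count was 37 with a pseudocount of 0.1, 1 without the filter, 10 with median-of-ratios scaling (7 higher, 3 lower), 42 with upper-quartile scaling, 4 with quantile normalization (1 higher, 3 lower), 1 without the variance trend and 1 without genotype as a term. The genotype count was 764 without the filter, 251 without the trend and 694 without treatment as a term. Single-library differences of at least 1.5-fold numbered 122 for LIF in Stat4-/-, 107 for LIF in WT, 467 for genotype with LIF and 394 for genotype without LIF. With a pseudocount of 0.1 these were 359, 302, 852 and 738, and with a minimum mean of 5 FPKM they were 28, 30, 232 and 199. Without the filter the count for LIF in WT was 169. With a pseudocount of 0.1, Ptgr1 joined Hpgd past 1.5-fold with LIF, so that 2 of the 9 genes were lower.

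Hpgd kept its genotype call in 8 of 8 alternative fits, and LIF called 0 of the 9 genes in all 8. Ptgs1 lost its call without the filter (adjusted p = 0.0551), without the trend (adjusted p = 0.0987) and without treatment as a term (adjusted p = 0.0560), and Ptges lost it in the last 2 of these (adjusted p = 0.144 and 0.0999). Under quantile normalization the Ptgs2 coefficients changed sign, to -0.0079 for LIF and -0.032 for genotype, neither passing in any fit. Of the further pathway genes, Akr1b3, Cbr1, Pla2g10 and Pla2g12b each lost the genotype call in 1 alternative fit (adjusted p = 0.107, 0.0761, 0.0651 and 0.0507). The cause of these changes was not tested. Among the tests of single genes, 187 of the other test values kept their side and direction and 29 kept direction but lost the call. Ptgr1, at 3.27 FPKM on average, has no value with the stricter filter. No paired analysis was possible because each group holds 1 library and all carry the same number. Depth limits mainly Ptgr1 and Hpgd, whose counting errors reach 7.89 and 6.39%.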

Other observations

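On log2(FPKM + 1), 2 of the 37 further pathway genes were past 1.5-fold with LIF between single libraries in WT cells. In Stat4-/- cells 1 of the 37 was. Of all tested genes, 0.872% passed that size in WT cells and 0.994% in Stat4-/- cells. The 3 pathway genes were chosen here for that size. Fam213b, a prostaglandin F synthase gene of the thioredoxin-like family, was at 4.27 FPKM with LIF and 2.02 FPKM in control in WT cells, and at 2.24 FPKM with LIF and 2.45 FPKM in control in Stat4-/- cells. Cbr3 was at 12.8 FPKM with LIF and 8.07 FPKM in control in WT cells, and at 14.0 FPKM with LIF and 13.6 FPKM in control in Stat4-/- cells. Ephx2, which encodes soluble epoxide hydrolase, was at 0.91 FPKM with LIF and 2.51 FPKM in control in Stat4-/- cells, and at 2.70 FPKM with LIF and 2.65 FPKM in control in WT cells. Limma passed none of these for LIF, with adjusted p of at least 0.248, and each of the differences rests on 1 library per group.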
